A study of Mus musculus with 8 samples.

Results

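The transcripts of the TGF-beta ligands, receptors and SMADs were followed in liver RNA-seq of hepatocyte-deleted *Usp39* mice. The set was given as 9 gene symbols, all of which were found in the count table among 55385 gene identifiers: the ligands *Tgfb1*, *Tgfb2* and *Tgfb3*, the receptors *Tgfbr1* and *Tgfbr2*, the signal carriers *Smad2* and *Smad3*, the inhibitor *Smad7* and the induced matrix gene *Tgfbi*. *Usp39*-HKO mice came from *Usp39* fl/fl mice, in which loxP sites flank exon 2, crossed to Alb-Cre mice, whose Cre is driven by the albumin promoter, which is active in hepatocytes. The comparison was between 4 *Usp39*-HKO livers and 4 livers of control littermates, whose genotype is labelled WT, all from 5-week-old males that had fasted for 16 h, with parental lines on a C57BL/6J background and 1 library per mouse. *Usp39* encodes a protein of the spliceosome, and the comparison asks how the liver transcriptome differs when hepatocytes lose it.

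TGF-beta ligands are secreted in a latent form, held in the matrix by binding proteins and released by proteases and integrins. The active ligand binds the type II receptor, which recruits and phosphorylates the type I receptor, and this receptor phosphorylates SMAD2 and SMAD3, which enter the nucleus with SMAD4. SMAD7 is induced by the same signal and acts against the type I receptor. In liver the pathway is known for activating hepatic stellate cells, for inducing matrix genes and for restraining hepatocyte growth.

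Total counts per liver were between 8589636 and 10418450. Levels are given as FPKM, counts scaled to the length of a gene and to the total of the liver, with control values in the order A468, A472, A473 and A475 and values of *Usp39*-HKO livers in the order A469, A470, A471 and A474. Log2 fold changes are of *Usp39*-HKO over control from edgeR's quasi-likelihood test on the counts with TMM scaling, which centres the comparison on the typical gene, and a gene was called at a Benjamini-Hochberg adjusted p under 0.05 over the 14340 genes tested. The median log2 fold change over all genes was 0.24 without that scaling and −0.0015 with it (0.17 and 0.22 in limma on log2 FPKM), so FPKM include a general upward shift that the log2 fold changes do not. Called genes split into 1561 higher and 1664 lower with TMM scaling, and 3525 of 4221 were higher without it. Because the tissue is a mixture, fewer cells of a type and less RNA per cell cannot be told apart in any of these values.

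The labels were first compared with the targeted gene and with tissue markers. *Usp39* measured 9.35, 10.4, 8.76 and 9.78 FPKM in control livers and 8.37, 8.63, 8.70 and 8.07 FPKM in *Usp39*-HKO livers. Each *Usp39*-HKO value was below each control value, although the gap was small, and a count over the whole gene cannot show the loss of exon 2. Its log2 fold change was −0.41 (SE 0.11, edgeR adjusted p = 0.0212), which missed the threshold without *Usp39*-HKO liver A474 or control liver A475 (0.0615 and 0.0547), and with no TMM scaling or in limma (0.164 to 0.247). All 10 hepatocyte markers were present, led by *Alb*, the gene of serum albumin, with a mean of 7956 ± 533 FPKM for controls and 8423 ± 1155 FPKM after deletion (SD, n = 4 each). Control liver A475 stood apart through transcripts of the exocrine pancreas: the 8 pancreas markers summed to 578 FPKM there, against 3.52, 2.92 and 2.98 in the other controls and between 3.32 and 4.97 in *Usp39*-HKO livers. *Ctrb1*, which encodes a chymotrypsinogen and was the most abundant of them, was at 254 FPKM in A475 and between 0 and 1.80 in the other 7 livers. Results for the TGF-beta genes are therefore given with and without control liver A475.

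Promoter sequences are shown for 4 genes whose levels were higher together, 3 that hold a SMAD-binding core motif and *Tgfb1*, which does not. RefSeq windows of the 250 bases before a start site (GRCm38.p6) matched 6 of the 9 genes. They were searched for CAGAC, the core bound by SMAD3 and SMAD4, and its reverse complement GTCTG, shown in capitals. Bases that lie in an annotated exon of any gene are not shown, but were searched.
*Tgfb1* (chr7:25686752-25687001, plus strand): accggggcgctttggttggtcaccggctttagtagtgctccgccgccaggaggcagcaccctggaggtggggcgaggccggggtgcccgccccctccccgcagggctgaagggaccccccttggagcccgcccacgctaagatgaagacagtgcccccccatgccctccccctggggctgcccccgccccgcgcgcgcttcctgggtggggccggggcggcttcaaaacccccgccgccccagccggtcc
*Tgfb2* (chr1:186706157-186706239, minus strand): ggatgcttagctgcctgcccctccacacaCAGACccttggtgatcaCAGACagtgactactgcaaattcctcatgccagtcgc
*Tgfbr2* (chr9:116175364-116175613, minus strand): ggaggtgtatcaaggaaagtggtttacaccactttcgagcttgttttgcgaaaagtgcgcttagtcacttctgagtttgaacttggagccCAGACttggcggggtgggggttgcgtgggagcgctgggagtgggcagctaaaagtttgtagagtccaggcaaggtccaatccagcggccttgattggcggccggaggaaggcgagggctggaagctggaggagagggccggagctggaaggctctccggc
*Tgfbi* (chr13:56609336-56609522, plus strand): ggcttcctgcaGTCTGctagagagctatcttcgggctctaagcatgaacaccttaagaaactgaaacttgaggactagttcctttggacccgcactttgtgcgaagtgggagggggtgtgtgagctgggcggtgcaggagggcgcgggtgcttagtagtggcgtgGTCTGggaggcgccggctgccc
*Tgfb2* and *Tgfbi* hold the motif at 2 places and *Tgfbr2* at 1, and it was not found in the windows of *Tgfb1*, *Smad3* and the upstream start of *Tgfbr1*, while a downstream start of *Tgfbr1* holds it at 1 place. Of 32851 windows of the same 250 bases, 42.2% hold CAGAC or GTCTG, so a match is common. The palindrome GTCTAGAC, in which GTCT is followed by its reverse complement AGAC, holds neither CAGAC nor GTCTG and was searched separately. It was in 0.167% of windows and in none of those of the 6 genes. The windows differ in base composition, with 75.2% G and C in *Tgfb1*, 53.6% in *Tgfb2*, 58.4% in *Tgfbr2* and 62.4% in *Tgfbi*.

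Ligand transcripts were higher in *Usp39*-HKO livers. *Tgfb1* (ENSMUSG00000002603, plus strand of chromosome 7, 25687002 to 25705077 on GRCm38), the main ligand of immune and stromal cells, measured 3.50, 4.58, 3.46 and 3.29 FPKM in controls and 5.37, 5.43, 6.63 and 7.89 FPKM in *Usp39*-HKO livers. The groups did not overlap, and the gap between the highest control, A472, and the lowest *Usp39*-HKO liver, A469, was smaller than the range within either group. The mean rose from 3.71 ± 0.59 to 6.33 ± 1.19 FPKM (SD, n = 4 each), with a log2 fold change of 0.53 (SE 0.14, edgeR adjusted p = 0.0215). The call was lost without control liver A475 (log2 fold change 0.46, adjusted p = 0.0695), and also without A468, A471, A473 or A474 (0.0584, 0.0555, 0.066 and 0.064), with a range of 0.00525 to 0.0695 over all alternatives.

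*Tgfb3* (ENSMUSG00000021253, minus strand of chromosome 12, 86056745 to 86079041), a ligand best known from palate and lung development, measured 1.29, 0.656, 0.413 and 0.511 FPKM in controls and 1.46, 1.68, 1.89 and 3.15 FPKM in *Usp39*-HKO livers. Control A468 lay well above the other 3 controls and close to the lowest *Usp39*-HKO liver, and *Usp39*-HKO liver A474 was the highest. The means were 0.717 ± 0.393 and 2.05 ± 0.76 FPKM (SD, n = 4 each), with a log2 fold change of 1.25 (SE 0.34, edgeR adjusted p = 0.0223). These levels rested on 12 to 40 counts per control liver and 48 to 101 per *Usp39*-HKO liver, and the call was lost without A473, A474 or A475 (adjusted p = 0.0679, 0.0688 and 0.0727, in a range of 0.00346 to 0.0727 over all alternatives). Annotated genes on the opposite strand overlap 12.4% of the exon bases of *Tgfb3*, and no strand setting is given for the counts, but these genes, *Gm37804* and *Gm48008*, held at most 1 count in a liver.

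*Tgfb2* (ENSMUSG00000039239, minus strand of chromosome 1, 186622792 to 186705989) was the least abundant ligand. It measured 0.320, 0.314, 0.281 and 0.265 FPKM in controls and 0.426, 1.08, 1.01 and 1.33 FPKM in *Usp39*-HKO livers. The controls were nearly equal, while *Usp39*-HKO liver A469 lay just above them and apart from the other 3. Because only 3 livers reached 0.5 FPKM, *Tgfb2* did not pass the filter on low values and was not among the 8 members tested. In a fit of all 28412 genes with a count, of which 13.2% were called, its log2 fold change was 1.42 (SE 0.30, edgeR adjusted p = 0.00113), from 14 to 18 counts per control liver and 24 to 73 per *Usp39*-HKO liver. Fits that leave out a liver were run for tested genes, so for *Tgfb2* the values without A475 are FPKM alone, with the other 3 controls at 0.281 to 0.320. A gene on the opposite strand, *Gm29491*, overlaps 2.14% of its exon bases and held at most 1 count in a liver.

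**Figure D1:**
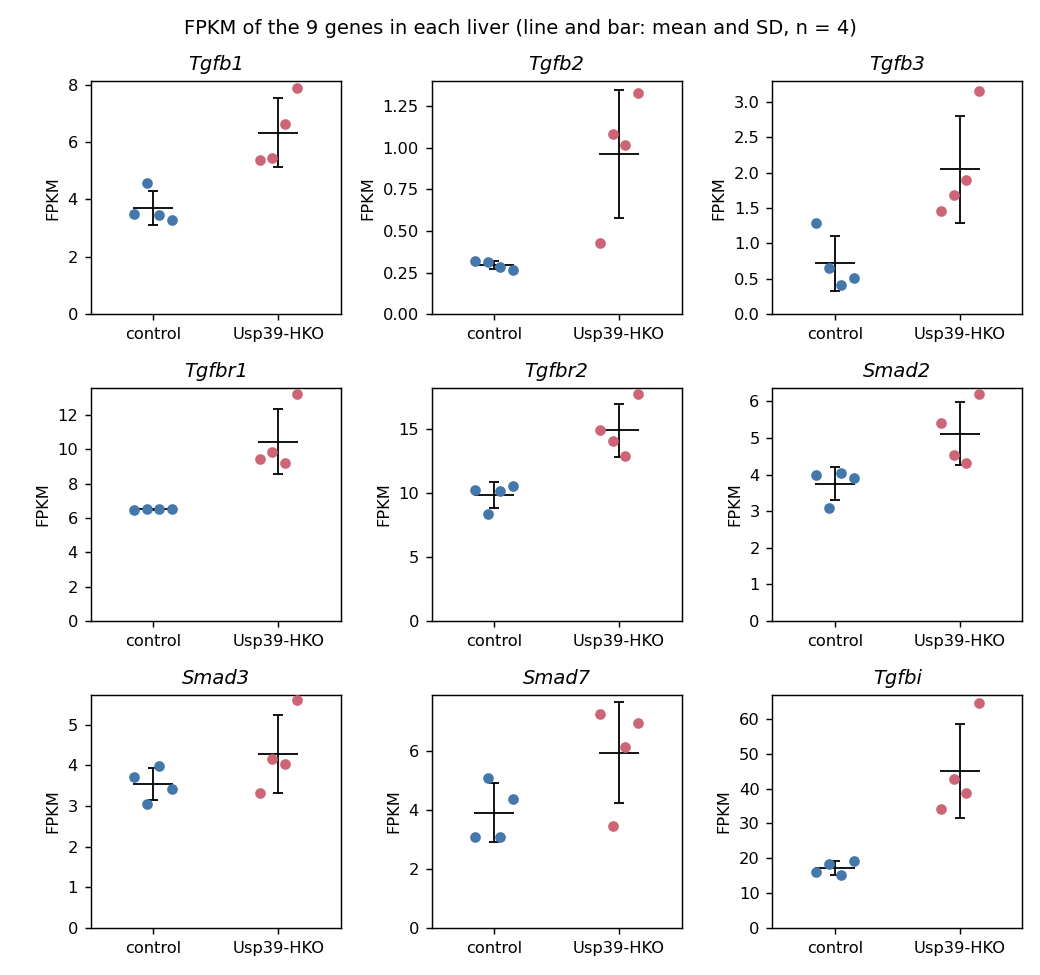
FPKM of each of the 9 genes in the 4 control livers (blue) and the 4 *Usp39*-HKO livers (red), with livers in the order given in the text and the mean and SD in black. The groups overlap for *Smad3* and *Smad7* and not for the other 7 genes, and the controls of *Tgfbr1* are nearly equal, at 6.50 to 6.53 FPKM.

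Together the 3 ligands summed to 5.11, 5.55, 4.16 and 4.07 FPKM in controls and to 7.25, 8.19, 9.53 and 12.4 FPKM in *Usp39*-HKO livers. Their proportions, which do not depend on scaling between livers, were described without a test. *Tgfb1* made up 68.5%, 82.5%, 83.3% and 80.9% of the ligand FPKM in controls and 74.0%, 66.2%, 69.5% and 63.8% in *Usp39*-HKO livers. *Tgfb1* was thus the larger part in each of the 8 livers, and its share was lower in the 4 *Usp39*-HKO livers and in control A468 than in the other 3 controls, so the groups overlapped. The share of *Tgfb3* was 25.2%, 11.8%, 9.93% and 12.6% in controls and 20.1%, 20.5%, 19.8% and 25.5% in *Usp39*-HKO livers. The share of *Tgfb2* was between 5.65% and 6.77% in controls and was 5.88%, 13.2%, 10.6% and 10.8% in *Usp39*-HKO livers. Control A468 had a share of *Tgfb3* like that of *Usp39*-HKO livers, and *Usp39*-HKO liver A469 a share of *Tgfb2* like that of controls.

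Both receptors were higher in *Usp39*-HKO livers. *Tgfbr1* (ENSMUSG00000007613, plus strand of chromosome 4, 47353222 to 47414931), the type I receptor kinase, measured 6.50, 6.53, 6.52 and 6.51 FPKM in controls and 9.43, 9.85, 9.24 and 13.3 FPKM in *Usp39*-HKO livers. The 4 controls were almost identical and lay below all *Usp39*-HKO livers, among which A474 was apart. The means were 6.52 ± 0.013 and 10.4 ± 1.89 FPKM (SD, n = 4 each), with a log2 fold change of 0.44 (SE 0.10, edgeR adjusted p = 0.0108). *Tgfbr1* kept an adjusted p under 0.05 in all 15 fitted alternatives, including 0.0389 without control liver A475 (range 0.00172 to 0.0389), but its log2 fold change is below the 0.5 that the study required.

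*Tgfbr2* (ENSMUSG00000032440, minus strand of chromosome 9, 116084293 to 116175360), the ligand-binding type II receptor, measured 10.3, 8.33, 10.2 and 10.5 FPKM in controls and 14.9, 14.1, 12.9 and 17.7 FPKM in *Usp39*-HKO livers. The groups did not overlap, with A472 the lowest control and A474 the highest *Usp39*-HKO liver. Its log2 fold change was 0.36 (SE 0.11, edgeR adjusted p = 0.036). The call was lost without control liver A475 (log2 fold change 0.39, adjusted p = 0.0679), without A468, A472, A473 or A474 (0.0613, 0.0719, 0.0746 and 0.0967), and with no filter on low values (0.076) (range 0.00489 to 0.0967). The ratio of *Tgfbr2* to *Tgfbr1* was 1.58, 1.28, 1.56 and 1.62 in controls and 1.58, 1.43, 1.39 and 1.34 in *Usp39*-HKO livers. The receptors thus stood in overlapping proportions in the 2 groups.

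The SMAD transcripts did not pass the test. *Smad2* (ENSMUSG00000024563, chromosome 18), a carrier of the signal, measured 3.98, 3.08, 4.03 and 3.91 FPKM in controls and 5.40, 4.55, 4.31 and 6.21 FPKM in *Usp39*-HKO livers. The groups did not overlap in FPKM, but the log2 fold change relative to the typical gene was 0.21 (95% interval −0.08 to 0.50, edgeR adjusted p = 0.286). Without TMM scaling it was 0.45, with an adjusted p of 0.0345 (range 0.0345 to 0.516), without control liver A475 it was 0.22 (adjusted p = 0.369), and the exact permutation p of its FPKM, 0.029 as deposited, was 0.257 after TMM scaling. *Smad3* (ENSMUSG00000032402, minus strand of chromosome 9, 63646767 to 63757994), the other carrier, measured 3.71, 3.06, 3.99 and 3.41 FPKM in controls and 3.32, 4.16, 4.03 and 5.62 FPKM in *Usp39*-HKO livers. Only A474 was well above the controls, and the log2 fold change was 0.03 (95% interval −0.28 to 0.33, edgeR adjusted p = 0.917) and −0.00085 without control liver A475 (range of adjusted p 0.226 to 0.998). The sign of the *Smad3* value changed between settings, at 0.28 with no TMM scaling and −0.0032 with no filter on low values.

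*Smad7* (ENSMUSG00000025880, chromosome 18), the feedback inhibitor, measured 3.08, 5.07, 3.09 and 4.37 FPKM in controls and 7.24, 3.45, 6.12 and 6.93 FPKM in *Usp39*-HKO livers. *Usp39*-HKO liver A470 lay within the control range and the other 3 above it. The log2 fold change of *Smad7* was 0.37 (95% interval −0.14 to 0.88, edgeR adjusted p = 0.289), and 0.42 without control liver A475 (adjusted p = 0.33, in a range of 0.0526 to 0.512 over all alternatives). The ratio of *Smad3* to *Smad2* was 0.933, 0.993, 0.990 and 0.872 in controls and 0.615, 0.915, 0.935 and 0.904 in *Usp39*-HKO livers, and that of *Smad7* to the sum of *Smad2* and *Smad3* was between 0.385 and 0.825 in controls and between 0.3963 and 0.8295 in *Usp39*-HKO livers. Apart from a low *Smad3* to *Smad2* ratio in A469, both ratios overlapped between the groups.

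**Figure D2:**
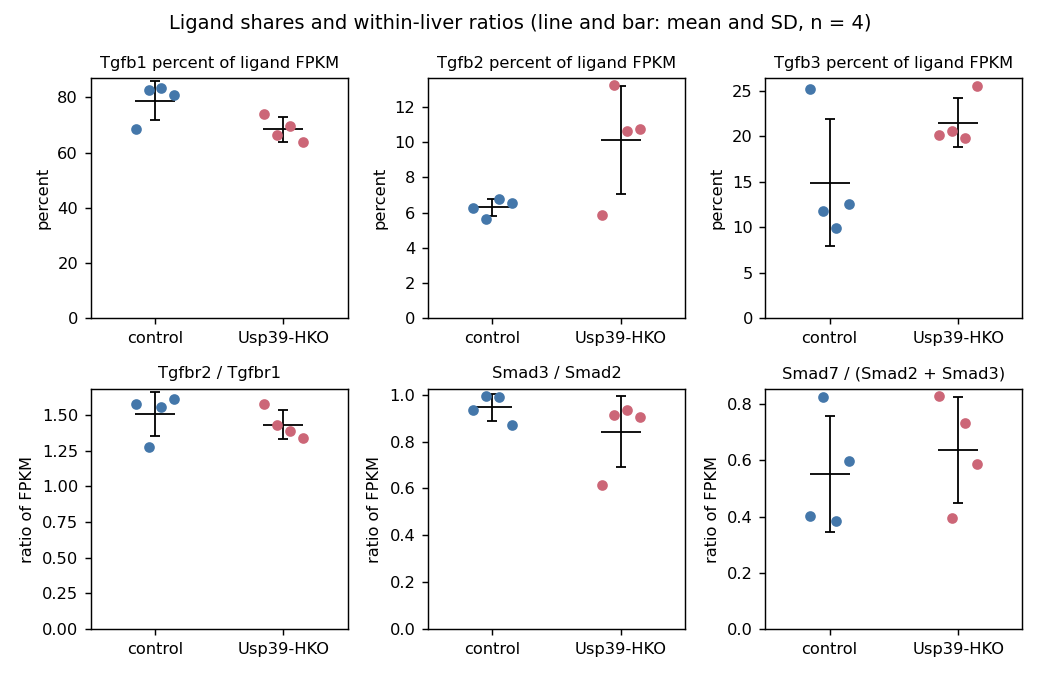
Share of each ligand in the summed FPKM of the 3 ligands, and 3 ratios of FPKM within a liver, in the 4 control livers (blue) and 4 *Usp39*-HKO livers (red), with mean and SD. The groups overlap in each panel, with control A468 near *Usp39*-HKO livers for *Tgfb1* and *Tgfb3* and *Usp39*-HKO liver A469 near controls for *Tgfb2*.

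The target gene was also higher in *Usp39*-HKO livers. *Tgfbi* (ENSMUSG00000035493, plus strand of chromosome 13, 56609523 to 56639562), named for its induction by TGF-beta, encodes a secreted matrix protein that binds collagen and integrins. It measured 16.0, 18.3, 15.3 and 19.3 FPKM in controls and 34.1, 42.7, 38.9 and 64.5 FPKM in *Usp39*-HKO livers. The lowest *Usp39*-HKO liver, A469, was well above the highest control, and A474 was again the highest. The mean rose from 17.2 ± 1.89 to 45.1 ± 13.4 FPKM (SD, n = 4 each), with a log2 fold change of 1.13 (SE 0.15, edgeR adjusted p = 0.000922), and of 1.18 without control liver A475 (adjusted p = 0.00457). The adjusted p was under 0.05 in all 15 fitted alternatives (range 4.88e-10 to 0.00548).

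In all, 5 of the 8 members tested were called, all 5 higher and 0 lower by edgeR, DESeq2 or limma, also at an unadjusted p under 0.05 (*Tgfb1*, *Tgfb3*, *Tgfbr1*, *Tgfbr2* and *Tgfbi*), where 22.5% of all genes tested were called and 10.9% were called as higher by edgeR (11.8% higher by DESeq2, 21.1% and 21.3% by limma and 17.4% at an unadjusted p). The median log2 fold change over the 8 was 0.40, against −0.0015 over all genes tested. Without control liver A475, and likewise without A473 or A474, 2 were called, *Tgfbr1* and *Tgfbi*, where 14.2%, 13.5% and 14.6% of all genes tested were called, and without A468 3 were, where 15.8% of all genes were. With no filter on low values 5 were called again, but with *Tgfb2* in place of *Tgfbr2*, where 13.2% of 28412 genes were called and 6.41% were higher, and 3 of the 8, *Tgfb1*, *Tgfb3* and *Tgfbi*, passed the study's cutoff as applied here to the edgeR fit, as did 21.7% of all genes tested. The study used DESeq2, and its cutoff of p at 0.05 with a log2 difference of 0.5 in size was read here as one on the unadjusted p. In FPKM, 6 of the 8 had every *Usp39*-HKO liver above every control, as did 23.9% of all genes tested, and after TMM scaling 5 did, as did 11.8% of all genes tested. For *Tgfb2* and those 6, the exact permutation p over the 70 assignments of livers was 0.029 (two-sided, n = 4 each), the smallest that can be reached, and 4 livers against 3 cannot reach below 0.057. Within the *Usp39*-HKO group, A474 had the highest FPKM for 8 of the 9 genes and A469 the lowest for 5, and after TMM scaling, whose factors were 1.19 for A474 and 1.01 for A469, these were 7 and 4.

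**Figure D3:**
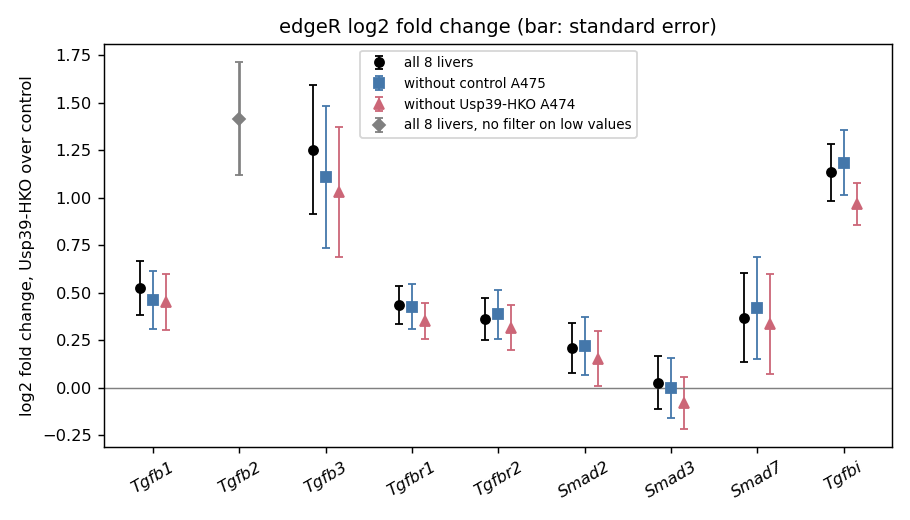
Log2 fold change from edgeR, with its SE, for each gene with all 8 livers (black), without control liver A475 (blue) and without *Usp39*-HKO liver A474 (red), and for *Tgfb2* with no filter on low values (grey). *Tgfb2*, *Tgfb3* and *Tgfbi* have the highest values, at 1.42, 1.25 and 1.13, and *Smad3* lies at 0.03.

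By level, the order in controls was *Tgfbi*, *Tgfbr2* and *Tgfbr1* at mean FPKM of 17.2, 9.81 and 6.52, then *Smad7*, *Smad2*, *Tgfb1* and *Smad3* at 3.90, 3.75, 3.71 and 3.54, and last *Tgfb3* and *Tgfb2* at 0.717 and 0.295. The 4 genes in the middle overlapped and do not differ beyond their spread, while the other neighbours were separate in the 4 controls. In *Usp39*-HKO livers the top and the bottom of the order were the same, and *Tgfb1*, at 6.33, stood above *Smad7* at 5.93, *Smad2* at 5.12 and *Smad3* at 4.28. Each of these again overlapped its neighbour, as did *Tgfbr2* with *Tgfbr1*.

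The genes whose centred log2 CPM over the 8 livers was most like that of a member were found by the root mean square difference, and are given for 7 of the 8 members tested. Those of *Tgfb1* were *Lix1l*, *Slc6a6* and *Nipsnap2* (differences 0.069, 0.079 and 0.083). Those of *Tgfb3*, which has fewer counts, were *Tmem119*, *Sfrp1* and *Slc35f2* (0.21, 0.23 and 0.25). The closest patterns were *Calu*, *Rac2* and *Cd38* for *Tgfbr1* (0.040, 0.066 and 0.066), *Cbfa2t2*, *Sgk3* and *Zup1* for *Tgfbr2* (0.065, 0.069 and 0.073), and *Arhgap19*, *Clstn1* and *Glipr2* for *Tgfbi* (0.11, 0.11 and 0.12). *Xpo4*, *Frs2* and *Stxbp3* were closest to *Smad2*, and *Gp1ba*, *Rai1* and an unnamed gene to *Smad7*, with differences between 0.047 and 0.14.

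Other genes of the TGF-beta superfamily were taken from 8 lists of 102 genes, of which 81 were tested, 28 were called higher and 6 lower, with a median log2 fold change of 0.31, where 10.9% of all genes tested were higher and 11.6% lower. Without TMM scaling 46 were higher and 1 lower (24.6% and 4.85% of all genes), and without control liver A475 22 were higher and 3 lower (7.11% and 7.13%). Of the genes called higher, 4 (*Bambi*, *Pmepa1*, *Smad6* and *Thbs1*) are in 2 of these lists each and are counted once in the totals. Among the other receptors and co-receptors, none of 9 tested was called by edgeR or DESeq2, while 1 had an unadjusted p under 0.05 and 1 was called by limma, and *Eng*, the most abundant, had a log2 fold change of 0.03 (−0.0033 with no filter, −0.033 without A468 or A470). Of the 5 other SMADs, *Smad6*, an inhibitor of BMP signaling, was called at 0.44, but not in 6 of the 8 fits without a liver (adjusted p of 0.0604 to 0.0939 without A468, A470, A471, A473, A474 or A475) and with no filter (0.0685). Limma called 4 of these 5 higher, and 21.1% and 21.3% of all genes tested at pseudocounts of 1 and 0.1. *Smad4*, the shared partner and the most abundant, was at 0.10 with an adjusted p of 0.472, and was called with no TMM scaling (0.0297) and in limma (0.0347 and 0.0349), which keep the general shift.

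For latency and activation, 12 of 15 genes were tested, 4 were higher and 1 was lower (6 and 7 higher and 0 lower in limma). Of all genes tested, edgeR called 10.9% higher and 11.6% lower, and limma 21.1% and 21.3% higher. *Thbs1*, whose product thrombospondin-1 releases latent TGF-beta, measured between 0.522 and 1.23 FPKM in controls and 2.27, 2.75, 2.74 and 8.72 FPKM in *Usp39*-HKO livers, with a log2 fold change of 1.94, and of 1.35 without A474. The latent TGF-beta binding proteins *Ltbp3* and *Ltbp1* were at 1.31 and 0.99, and the fibrillin gene *Fbn1* at 1.15. *Furin*, the protease that cleaves TGF-beta precursors, was lower at −0.43, a call lost in 7 of 8 fits without a liver (all but A469, adjusted p up to 0.102) and with no TMM scaling or in limma (up to 0.218). *Itgb1*, the most abundant gene of that list, was at 0.06 with an adjusted p of 0.756 and *Usp39*-HKO livers at 65.0 to 96.6 FPKM.

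Negative regulators had 14 of 15 genes tested, with 5 higher and 1 lower (6 and 0 in limma). The shares over all genes tested were 10.9% higher and 11.6% lower by edgeR, and 21.1% and 21.3% higher in limma. *Pmepa1* and *Tgif1*, which restrain SMAD2 and SMAD3, were at 1.20 and 0.67, the matrix proteoglycan genes *Bgn* and *Dcn* at 0.91 and 0.83, and the pseudoreceptor gene *Bambi* at 0.73, lost without A468 or A474 (adjusted p = 0.0576 and 0.0612). *Nedd4l*, a ubiquitin ligase of activated SMADs, was lower at −0.44, a call lost in 7 of 8 fits without a liver (all but A470, adjusted p up to 0.0805) and with no TMM scaling or in limma (log2 fold change −0.19 to −0.22, adjusted p up to 0.322).

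Among other ligands of the superfamily, 12 of 18 were tested. By edgeR 3 were higher and 2 lower, by DESeq2 4 and 2, and by limma 7 and 0 at both pseudocounts. At an unadjusted p under 0.05, 6 were higher and 2 lower. Of all genes tested, 10.9% were higher and 11.6% lower by edgeR, and 11.8% and 12.3% by DESeq2. Limma called 21.1% and 21.3% higher and 4.44% and 4.37% lower, and at the unadjusted p 17.4% were higher and 18% lower. *Gdf15*, a stress-induced ligand, measured 6.12, 16.8, 8.36 and 7.05 FPKM in controls and 26.4, 31.3, 102 and 43.4 FPKM in *Usp39*-HKO livers, with a log2 fold change of 2.17, and of 1.55 without A471. *Gdf10* and *Gdf2*, which encodes BMP9, were at 0.90 and 0.50, each lost in 5 of 8 fits without a liver (A468, A474 and A475 for both, A470 and A472 for *Gdf10*, A471 and A473 for *Gdf2*, adjusted p up to 0.092 and 0.0834). The hepatocyte activin subunits *Inhbc* and *Inhbe* were lower at −0.77 and −0.66, lost for *Inhbc* without A468, A469, A472, A474 or A475 (adjusted p up to 0.0738) and for both with no TMM scaling (0.0807 and 0.0822) and in limma (0.0894 to 0.104). Of 10 secreted antagonists, 4 were tested, with *Fstl1* higher at 1.44 and *Chrd*, the chordin gene, lower at −1.03.

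Among the TGF-beta target genes, 22 of 25 were tested, 14 were higher and 1 was lower, with a median log2 fold change of 0.82. Of all genes tested, 10.9% were higher and 11.6% lower. *Timp1*, an inhibitor of matrix proteases, measured 0, 0.227, 0.131 and 0 FPKM in controls and 0.811, 0.884, 0.944 and 1.31 FPKM in *Usp39*-HKO livers, with a log2 fold change of 3.05 that rests on few counts and was 3.99 without A472. It passed the filter on low values only through the *Usp39*-HKO group, and without it 13 of 21 tested were higher, with a median of 0.74, and 27 of the 80 pathway genes. *Fn1*, the fibronectin gene and the most abundant of that list, was lower, from 216 ± 13.6 to 169 ± 22.9 FPKM (SD, n = 4 each) and at −0.59, with an adjusted p of 0.0524 with no TMM scaling. Of 8 BMP target genes, all tested, 4 were higher by edgeR (*Id1*, *Id3*, *Smad6* and *Bambi*), 3 by DESeq2 and 5 by limma, and 0 were lower by any of these or at an unadjusted p under 0.05. DESeq2 called 11.8% of all genes tested higher, and limma 21.1% and 21.3%. *Id1* and *Id3* were at 1.16 and 1.11, and *Id1* was lost in 6 of 8 fits without a liver (all but A470 and A475, adjusted p up to 0.112) and in DESeq2 (0.0676). *Hamp*, the hepcidin gene, spread from 23.9 to 486 FPKM in controls and from 139 to 1010 FPKM in *Usp39*-HKO livers and was not called (adjusted p = 0.336).

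**Figure D4:**
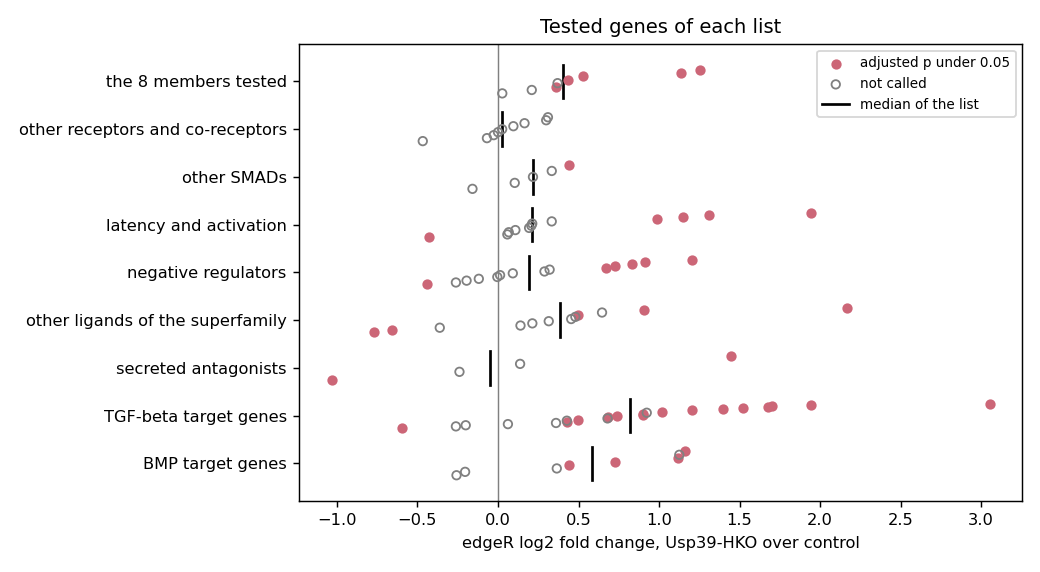
Log2 fold change from edgeR of each tested gene of the TGF-beta members and of 8 lists of related genes, with called genes filled and the median of each list as a line. The median is 0.82 for TGF-beta target genes, 0.40 for the 8 members tested and 0.03 for other receptors and co-receptors.

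Of the marker lists for cell types, those of stellate cells, myofibroblasts, macrophages and cholangiocytes had higher summed FPKM in *Usp39*-HKO livers, without overlap, also after TMM scaling. Lymphocyte sums did not overlap in FPKM but did after TMM scaling (control maximum 8.30, *Usp39*-HKO minimum 7.78). Among all genes tested, edgeR called 10.9% higher and 11.6% lower. Of 10 stellate cell markers, 9 were tested and 6 were higher, and the list summed to 63.8, 73.1, 69.1 and 65.7 FPKM in controls and 87.1, 121, 113 and 141 FPKM in *Usp39*-HKO livers. *Colec11*, its most abundant gene, was not called (log2 fold change 0.18), but was with no TMM scaling (0.42), and *Gfap* was below 0.5 FPKM in all 8 livers. The 10 myofibroblast markers summed to 23.6, 22.4, 18.9 and 17.0 FPKM in controls and 29.9, 79.0, 62.3 and 90.5 FPKM in *Usp39*-HKO livers, with 5 of 8 tested higher (*Lum*, *Col1a1*, *Fbln2*, *Col1a2* and *Postn*, the last lost without A468 or A475, adjusted p = 0.053 and 0.0578). Of these 10 genes 5 (*Acta2*, *Tagln*, *Col1a1*, *Col1a2* and *Postn*) are also in the list of TGF-beta target genes, and 3 of them are counted as higher in both lists. *Lum*, the most abundant over the 8 livers, although below *Postn* in controls (mean FPKM 4.25 and 4.74), had a log2 fold change of 2.42. The contractile marker *Acta2* was not called (0.92, adjusted p = 0.167), but was without A468 or A469 (0.0401 and 0.03), and *Tagln* and *Cnn1* did not pass the filter.

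Kupffer cell and macrophage markers summed to 323, 390, 302 and 330 FPKM in controls and 551, 569, 581 and 830 FPKM in *Usp39*-HKO livers, with 7 of 9 tested higher and *Cd5l* the most abundant. Of all genes tested, 10.9% were called higher. Cholangiocyte markers summed to 28.6, 29.0, 26.6 and 27.4 FPKM in controls and 65.1, 141, 151 and 289 FPKM in *Usp39*-HKO livers. Of that list of 8, 5 were tested and called higher (*Spp1*, the most abundant, *Epcam*, *Krt19*, *Cldn4*, which passed the filter only through the *Usp39*-HKO group, and *Sox9*, the last lost in all fits without a liver but that without A469, with an adjusted p up to 0.114, and in limma). In FPKM, A474 was the highest and A469 the lowest *Usp39*-HKO liver for these 4 lists, as for *Tgfb1*, *Tgfb2*, *Tgfb3*, *Smad3* and *Tgfbi*. After TMM scaling the lowest was A470 for the macrophage list and for *Tgfb1*. The part of these cell types in the values of the TGF-beta genes was not tested.

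Cell cycle markers summed to between 11.0 and 16.4 FPKM in controls and between 30.8 and 42.5 FPKM in *Usp39*-HKO livers, with 5 of 6 higher (*Mki67*, *Top2a*, *Ccnb1*, *Cdk1* and *Plk1*) and *Pcna*, the most abundant, not called (adjusted p = 0.064; 0.00654 with no TMM scaling). For these and the next lists, the edgeR shares over all genes tested were 10.9% higher and 11.6% lower. Erythroid markers summed to between 321 and 682 FPKM in controls and between 143 and 325 FPKM in *Usp39*-HKO livers, with all 4 tested lower (*Hba-a1*, *Hbb-bs*, *Hbb-bt* and *Alas2*). Hepatocyte markers had 4 of 10 lower, *Apob*, *Cps1*, *Cyp2e1* and *Serpina1c*, each lost in limma at 1 or both pseudocounts and without A468 or A473. *Apob* and *Cps1* were also lost with no TMM scaling (adjusted p = 0.0819 and 0.16) and *Cps1* with no filter (0.0684). The sums of that list overlapped between the groups, at 18685 to 20425 and 16221 to 21790 FPKM. Further livers whose absence ended a call were A471 and A475 for *Apob*, *Cps1* and *Cyp2e1*, A470 for *Cps1* and *Cyp2e1*, and A474 for *Cps1* (adjusted p of 0.0558 to 0.144 over the 4 genes). Endothelial markers summed to 144 to 160 FPKM in controls and 152 to 165 FPKM in *Usp39*-HKO livers. Of 10, *Stab2* and *Lyve1* were lower, and *Clec4g* was the most abundant over the 8 livers. The *Stab2* call was lost in 7 of 8 fits without a liver, all but A469 (adjusted p up to 0.12). It was also lost with median-ratio scaling, no TMM scaling, a mean FPKM of at least 1 and in limma (adjusted p of 0.0519 to 0.468). The *Lyve1* call was lost without A473 (0.0537). After TMM scaling the sums of the endothelial and of the erythroid list were lower in all 4 *Usp39*-HKO livers than in any control. Of the endothelial markers DESeq2 called 1 higher and 2 lower, and limma 3 higher and 1 lower. Over all genes tested DESeq2 called 11.8% higher and 12.3% lower, and limma 21.1% and 21.3% higher and 4.44% and 4.37% lower. Of 6 lymphocyte markers tested 1 was higher, *Ptprc*, and its call was lost without A470, A472, A473, A474 or A475 (adjusted p up to 0.086). *Nkg7*, the most abundant of them, was not called by edgeR (log2 fold change 0.35, adjusted p = 0.361). Limma called it at both pseudocounts (adjusted p = 0.0446 and 0.0436), with 2 of the 6 higher. None of 4 neutrophil, 3 platelet and 1 pancreas markers tested was called by edgeR, DESeq2 or limma. At an unadjusted p under 0.05 the pancreas marker, *Cela1*, was lower, and 0 of the neutrophil and platelet markers passed. *Cela1* was at 50.1 FPKM in control A475, at 2.45 to 2.83 in the other controls and at 2.23 to 2.98 in *Usp39*-HKO livers. Apart from A475 the groups thus overlapped.

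**Figure D5:**
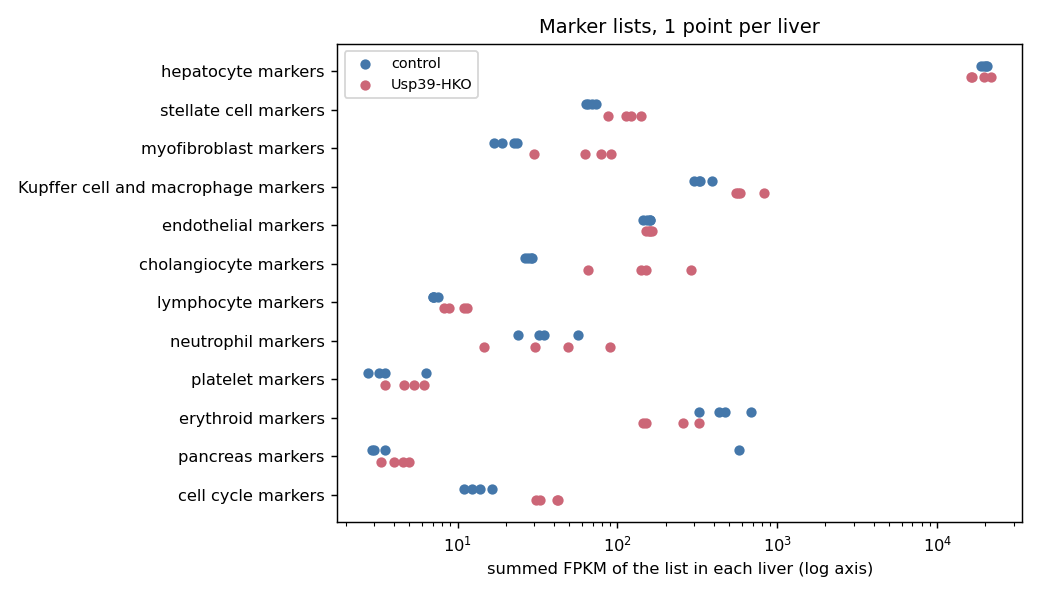
Summed FPKM of each marker list in the 4 control livers (blue) and 4 *Usp39*-HKO livers (red), on a log axis. Stellate cell, myofibroblast, macrophage, cholangiocyte, lymphocyte and cell cycle sums do not overlap between the groups, although lymphocyte sums do after TMM scaling, and control A475 stands apart for pancreas markers, at 578 FPKM.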

How the data were processed

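Liver RNA of 8 mice was sequenced as paired reads on a NovaSeq, and the library kit is not stated to mark strand. Per the submitters' processing notes and the study's methods, the authors trimmed reads with Trim Galore (0.6.1), checked them with FastQC (0.11.9), aligned them to mm10 with HISAT2 and used featureCounts to assign reads to genes. The annotation release and the strand setting of the counts are not given in the sources used here. The authors deposited raw counts per gene, without normalization, and FPKM made from these counts, the gene length and the total of the liver, which recomputed FPKM matched to a relative difference of 1.96e-07. The file also holds the authors' own DESeq2 comparison (mean level, log2 fold change, its error and statistic, p-values and a call), which was not used. Repeated identifiers differed in the symbol alone and were read once. A floor of 3 counts equals 0.288 to 0.349 CPM, which covers counting error only.

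Genes that reached 0.5 FPKM in 4 or more livers were tested with edgeR 4.0.16 (quasi-likelihood, TMM factors between 0.911 and 0.94 for controls and between 1.01 and 1.19 for the others, no covariates, Benjamini-Hochberg adjustment), after the code was tested on simulated data. The common biological coefficient of variation was 0.179. FPKM of single genes were compared with a two-sided exact permutation test (SciPy 1.17.1). Alternatives were DESeq2 1.42.0, median-ratio scaling, no TMM scaling, no filter, a mean FPKM of at least 1, limma 3.58.1 on log2(FPKM + 1) and log2(FPKM + 0.1), the study's cutoff on the edgeR fit (unadjusted p), TMM-scaled FPKM, and leaving out each liver. The labels name no batch, and none was tested. Replicates are separate mice.

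The members and lists were chosen with earlier results of these data known. Genes named by rule were the members, *Usp39*, in each pathway list the 2 largest rises and falls among called genes and the most abundant gene, the most abundant gene of each marker list, and for tested members other than *Smad3* the 3 genes with the nearest centred log2 CPM (prior count 2). The genes *Ltbp1*, *Fbn1*, *Tgif1*, *Bambi*, *Gdf2* and *Acta2*, and the called markers other than the most abundant, were chosen after their values were seen, as were further markers named as untested. Coordinates and exon overlaps are from GENCODE vM21 on GRCm38, which holds 99.6% of the identifiers, and promoter windows from RefSeq.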

Additional observations from a re-analysis of the deposited data

Results flagged for a closer look

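In 186 groups of 4 livers, 17 had a highest or lowest value far from the other 3 relative to the range, where chance gives about 1 in 20. Among the TGF-beta genes, control A472 was apart for *Tgfb1* (high, 4.58 FPKM), *Tgfbr2* (low, 8.33 FPKM) and *Smad2* (low, 3.08 FPKM). *Usp39*-HKO liver A474 was high for *Tgfbr1* (13.3 FPKM), for the summed FPKM of the 9 genes (127), for *Thbs1* (8.72 FPKM) and for the summed Kupffer cell and macrophage markers (830 FPKM).

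Of the proportions, control A468 was low in the share of *Tgfb1* in ligand FPKM (68.5%), *Usp39*-HKO liver A474 high in that of *Tgfb3* (25.5%), and *Usp39*-HKO liver A469 low in the ratio of *Smad3* to *Smad2* (0.615). A469 was also apart for *Furin* (high, 45.6 FPKM) and *Usp39*-HKO liver A470 for *Pf4* (low, 1.63 FPKM). Among controls, A468 was apart for *Acta2* (high, 2.38 FPKM), A473 for *Lyve1* (high, 28.8 FPKM) and A472 for *Epcam* (high, 1.29 FPKM). Control A475 was apart for *Ctrb1* (254 FPKM) and for the summed pancreas markers (578 FPKM).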

How the results depend on the processing

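Of the 5 members called, *Tgfbr1* and *Tgfbi* had an adjusted p under 0.05 in all 15 fitted alternatives, but *Tgfbr1* did not pass the study's cutoff, and no member was called lower in any. Leaving out 1 liver gave 2 to 5 members called, all higher, with fewer samples in each fit, where 13.5% to 24.5% of all genes tested were called, and the study's cutoff gave 3, all higher (*Tgfb1*, *Tgfb3* and *Tgfbi*), and 21.7% of all genes. With no TMM scaling 6 members were called, *Smad2* being added, where 29.4% of all genes were called and 24.6% were higher. For the pathway genes, leaving out 1 liver gave 20 to 29 higher and 3 to 5 lower (6.85% to 12.9% and 6.62% to 11.6% of all genes). With no TMM scaling they were 46 higher and 1 lower. In limma, with pseudocounts of 1 and 0.1, 40 and 41 were higher, where 21.1% and 21.3% of all genes were, and 2 were lower in each. These fits keep the general shift of *Usp39*-HKO livers. Limma also differs from the main fit in its test, and the part of each difference was not tested.

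Log2 fold changes that changed sign were not called. They were those of *Smad3* with no filter (−0.0032) and without A472 (−0.039), A474 (−0.079) or A475 (−0.00085), up to 0.122 without A469, of *Eng* with no filter (−0.00334) and without A468 or A470 (−0.033 to 0.0774 over single livers left out), of *Alb* with no TMM scaling (0.084) and in limma (0.075 and 0.075), of *Clec4g* with no filter (−0.0103) and without A468, A471 or A473 (−0.0711 to 0.11), and of *S100a9* with no TMM scaling (0.17) and without A470, A471 or A472 (−0.655 to 0.252). The cause of the changes other than those of scaling was not tested. Over the 72 genes named with a fit, 898 gene and setting pairs kept direction and call, 134 lost the call, 14 gained it and 18 changed sign.

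*Tgfb2* and *Tgfb3*, with as few as 14 and 12 counts in a liver, had the fewest counts among the members, so their levels have the widest counting error. Over all genes, leaving out 1 liver gave 1931 to 3510 calls against 3225. Cell types, protein levels and pathway activity were not measured, each group holds 4 livers of 1 sex and age, and control A475 carries pancreas transcripts.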
